A study of Mus musculus with 79 samples.

Results

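The genes described here make up the proteasome: 49 of the 15198 genes listed in 5 deposited count tables have a symbol that starts with Psma, Psmb, Psmc, Psmd, Psme, Psmf or Psmg followed by a number, the naming series of proteasome subunits, activators and assembly factors. The rule used symbols and no measured value. All 49 were listed for liver in a light-dark cycle and 48 in each of the other tables, and 47 or 48 had enough counts to be tested. Psma8, an alpha subunit known from testis, reached 23 counts over all libraries of 1 liver table and was not tested. Psmc3ip carries a name of the series but is known as a recombination factor of meiosis, and it was tested in kidney and lung and in the fit over the tissues. Psme2b is a near copy of Psme2 on another chromosome.

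RNA was sequenced from C57BL/6 mice aged 3 months after 4 h in a cage flushed with 6% oxygen or with 21% oxygen, referred to as air. Liver, kidney and lung of 16 wild-type (WT) mice came from a cycle of 12 h light and 12 h dark, with exposure at ZT4-8 (in the light) or ZT16-20 (in the dark), hours after lights on. Liver of WT mice and of mice labelled as a Per1,2 double knock-out (KO) came from constant darkness after 2 days, with exposure at CT4-8 or CT16-20, the same hours of the free-running day. This gave 79 libraries in 20 groups of 4 mice, except 3 in KO liver at CT16-20 in 6% oxygen. Libraries held 1443280 to 6744480 counts, and the proteasome genes took 0.394 to 0.629% of them. Values are in CPM, counts relative to the size of the library, on library totals scaled by TMM, differences are log2 ratios with their standard error (SE), and a gene is called higher or lower at an adjusted p under 0.05 in edgeR's quasi-likelihood test with Benjamini-Hochberg adjustment over all genes tested.

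Markers of hepatocytes, kidney tubule and lung epithelium fell in the tissue each library was labelled with: in air their summed levels were 164821 CPM or more in liver, 14540 CPM or more in kidney and 41764 CPM or more in lung, against at most 601 CPM in either other tissue. Per1 and Per2 counts overlapped between the KO label and WT in air at both times (Per1 at CT4-8 lay between 16.6 and 41.5 CPM in WT and 20.4 and 35.2 CPM in KO, and Per2 between 5.20 and 10.7 CPM and 5.16 and 11.5 CPM). In 6% oxygen Per1 was lower in every KO library, with 43.5 to 86.8 CPM in WT and 14.1 to 21.6 CPM in KO at CT4-8 and 58.0 to 75.7 CPM and 15.7 to 32.9 CPM at CT16-20. Per2 was higher in every KO library at CT4-8 (2.82 to 10.6 CPM in WT and 17.8 to 31.8 CPM in KO) and overlapped at CT16-20. Comparisons by genotype are between libraries labelled KO and WT. No source used here gives the deleted parts of the 2 genes, so these counts do not check the deletion. The labels' genotypes also coincide with the count tables, and the 2 cannot be told apart. In WT liver in constant darkness, library a of air at CT4-8 stood apart, with a median rank correlation of 0.866 with the others of its table, where the next lowest was 0.922.

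The proteasome is the cell's main protease for proteins tagged with ubiquitin. Its barrel-shaped core has outer rings of alpha subunits (Psma) and inner rings of beta subunits (Psmb), of which Psmb5, Psmb6 and Psmb7 carry the active sites. In cells exposed to interferon, and in leukocytes at rest, Psmb8, Psmb9 and Psmb10 take their places in newly built particles, the immunoproteasome, which favours peptides that fit class I major histocompatibility molecules. A regulatory cap of ATPases (Psmc), which unfold the substrate, and of non-ATPase subunits (Psmd), which bind and strip ubiquitin, sits on the core. Other activators (Psme1 and Psme2 as a mixed ring, Psme3 and Psme4 alone) open the core without ubiquitin, and chaperones (Psmg1 to Psmg4 for the core, Psmd5, Psmd9 and Psmd10 for the cap) build both parts. When proteasomes fail, the transcription factor Nfe2l1 is known to raise the subunits' genes together.

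The start regions of the catalytic genes are shown because these genes set the tissues apart. The windows are the 250 bases before the RefSeq start of Psmb5 (chr14:54617996-54618245, minus strand), Psmb8 (chr17:34197945-34198194, plus strand), Psmb9 (chr17:34187331-34187580, minus strand) and Psmb10 (chr8:105938393-105938642, minus strand) on GRCm38.p6, each printed 5′ to 3′. Capitals mark the antioxidant response element TGACNNNGC in Psmb5, the gamma interferon activation site TTCNNNGAA in Psmb8 and the E-box CACGTG in Psmb10, and no motif is capitalised in Psmb9. The Psmb8 and Psmb9 windows lie inside the gene spans of GENCODE vM21 (chr17:34197721-34201454 and chr17:34181987-34187764). Bases before the outermost annotated start of these genes were therefore not searched.
Psmb5: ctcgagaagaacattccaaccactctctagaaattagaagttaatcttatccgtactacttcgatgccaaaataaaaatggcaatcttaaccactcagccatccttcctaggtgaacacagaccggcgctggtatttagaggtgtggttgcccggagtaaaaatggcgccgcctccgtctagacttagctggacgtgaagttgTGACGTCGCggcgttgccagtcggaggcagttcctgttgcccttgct
Psmb8: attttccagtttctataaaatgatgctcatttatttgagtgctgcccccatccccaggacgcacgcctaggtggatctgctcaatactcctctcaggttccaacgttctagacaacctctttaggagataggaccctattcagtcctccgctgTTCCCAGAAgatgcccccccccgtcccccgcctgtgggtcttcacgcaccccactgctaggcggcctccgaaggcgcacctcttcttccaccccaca
Psmb9: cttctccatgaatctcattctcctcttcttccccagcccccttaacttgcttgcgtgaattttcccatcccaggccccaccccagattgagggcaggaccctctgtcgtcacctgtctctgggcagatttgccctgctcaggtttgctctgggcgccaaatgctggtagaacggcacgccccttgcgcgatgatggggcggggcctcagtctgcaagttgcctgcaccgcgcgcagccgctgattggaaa
Psmb10: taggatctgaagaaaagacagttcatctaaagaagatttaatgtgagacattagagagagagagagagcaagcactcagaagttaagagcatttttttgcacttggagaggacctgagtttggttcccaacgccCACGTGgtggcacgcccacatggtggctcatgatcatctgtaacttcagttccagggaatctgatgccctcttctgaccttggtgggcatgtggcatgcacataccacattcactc
RefSeq windows of this length were at hand for 41 of the 49 genes, and both strands were searched. The proteasome genes were counted by gene, over 44 windows, and the background by window, so the shares differ in unit. TGACNNNGC stood in the windows of 5 of the 41 (12.2%; Psmb5, Psmb6, Psmc6, Psmd9 and Psmd12) and in 10.2% of all 32851 windows. TTCNNNGAA stood in 2 (Psmb8 and Psmg1; 7.02% of all windows), and the interferon-stimulated response element (GAAA, any 2 bases, GAAA) in 3 (Psmb3, Psmd4 and Psmd9; 2.98%). The ETS factor motif CCGGAAG stood in 13 of the 41 (31.7%), against 6.91% of all windows. ACGTG, the core of the hypoxia response element, stood in 8 (19.5%; 16.6% of all windows), and CACGTG, which contains it, in 4. These are matches of letters and not measured sites.

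Psme2 and Psme2b are shown because they moved in opposite directions in constant darkness. Their coding sequences (GENCODE vM21, mm10; Psme2 at chr14:55587441-55591113 and Psme2b at chr11:48945354-48946190, both minus strand) are 717 bases long and share 712, an identity of 99.3%, with a longest identical run of 311 bases. The stretch of coding bases 454 to 543 holds 3 of the 5 differences, in capitals.
Psme2: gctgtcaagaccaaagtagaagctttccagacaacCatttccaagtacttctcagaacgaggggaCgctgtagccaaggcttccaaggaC
Psme2b: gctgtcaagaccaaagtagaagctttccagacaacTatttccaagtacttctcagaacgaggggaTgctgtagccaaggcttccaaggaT
Reads that cover none of the 5 differences match both genes, so the counts of the pair are uncertain, and the pair is also given as a sum.

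Kidney and lung held lower levels of most proteasome genes than liver in air when libraries were scaled on the bulk of genes. The 3 immunoproteasome subunits were among the genes lower in kidney, but in lung they stood at or above their level in liver. Of 48 genes tested over the 8 air mice with mouse as a block, 2 were higher and 35 lower in kidney than in liver, where 33.3% and 32.6% of all genes tested were. In lung against liver 2 were higher and 42 lower (40.5% and 38.3% of all genes), and in lung against kidney 5 were higher and 31 lower (38.7% and 36.8%). The 2 higher against liver include Psmc3ip in each case, which passed the filter through its kidney and lung counts and so had to differ. The median difference was -0.60 for kidney minus liver, -1.07 for lung minus liver and -0.46 for lung minus kidney, where the medians over all genes were 0.01, 0.05 and 0.04. These directions rest on the scaling. The TMM factors were 0.536 to 0.658 in liver, 1.14 to 1.23 in kidney and 1.31 to 1.55 in lung. The 20 most abundant genes took 26.6 to 31.8% of counts in liver, 12.4 to 15.6% in kidney and 14.8 to 18.3% in lung, and on plain library totals the medians turned to 0.38 and 0.23 against liver (0.99 and 1.35 over all genes), with 27 higher and 7 lower in kidney and 23 higher and 10 lower in lung. Lung minus kidney kept its sign on totals, with a median of -0.14, 11 higher and 18 lower.

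The core went the same way as the cap. Of the 7 alpha subunits, 6 were lower in kidney and 7 in lung than in liver, and of the 7 constitutive beta subunits 6 and 7 were lower. Of the 6 ATPases 4 were lower in kidney and 6 in lung, and of the 11 non-ATPase subunits 9 and 11 were lower. All of these lung and kidney calls use scaled totals, as above. Psmd11, a scaffold subunit of the cap, held 73.5, 86.7 and 94.8 CPM (lowest, median and highest of 8) in liver, 29.0, 46.8 and 56.7 CPM in kidney and 12.5, 15.3 and 19.3 CPM in lung, so that no 2 tissues overlapped. Its difference was -2.45 (SE 0.11) for lung minus liver and -1.48 (SE 0.11) for lung minus kidney, and on plain totals -1.14 and -1.16. Psmg1, a chaperone of the alpha ring, ran from 41.1 to 73.7 CPM in liver, 37.1 to 43.0 CPM in kidney and 5.95 to 14.8 CPM in lung. Lung lay below both other tissues, which overlapped each other (lung minus kidney -1.91, adjusted p = 6.17e-18).

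Other named differences from liver were those of Psmb1 in kidney (-0.88), Psmg3 in kidney (-1.01), Psmb4 in lung (-1.47), Psmb1 in lung (-1.24), Psma7 in lung (-1.34), Psmd8 in lung (-1.16) and Psmd6 in lung (-1.68), all called. On plain totals Psmb1 turned to 0.10 in kidney and 0.07 in lung and Psmd8 to 0.15, with none of these called. Psmg3 and Psma7 came to -0.03, Psmb4 to -0.17 and Psmd6 to -0.37 against liver. Psmd6 was also lower in lung than in kidney (-1.42), as was Psme4 (-1.67), an activator known from spermatogenesis and DNA repair. Psmc3ip, the recombination factor, held 0.764 to 3.03 CPM in liver, 7.49 to 12.7 CPM in kidney and 7.80 to 13.8 CPM in lung. Its liver counts were too low to be tested within liver, at most 6 in a library of the light-dark cycle.

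**Figure D1:**
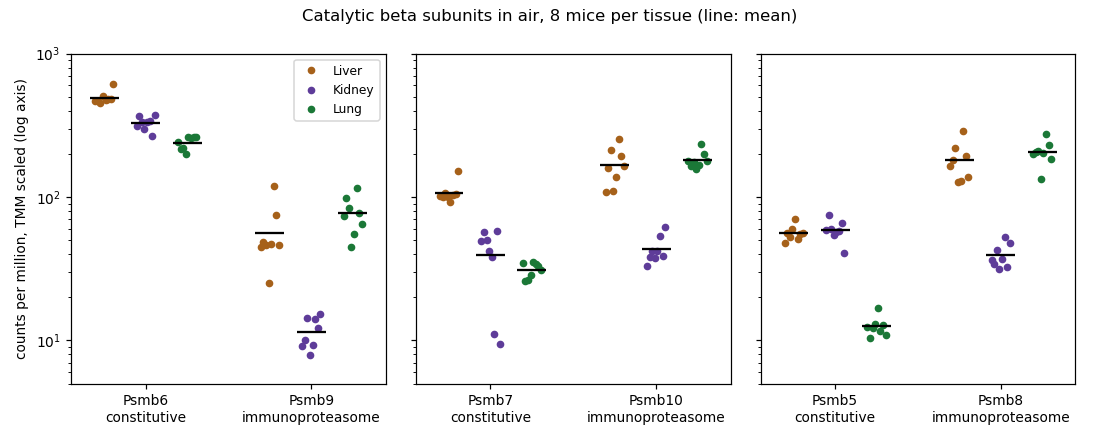
Levels in air of the 3 constitutive catalytic subunits and of the immunoproteasome subunits that replace them, as TMM-scaled CPM on a log axis, 1 point for each of the 8 mice in each tissue with a bar at the mean. Psmb8, Psmb9 and Psmb10 lie lowest in kidney, and Psmb5 lies lowest in lung, where its highest value was 16.8 CPM.

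The catalytic subunits differed from tissue to tissue in a gene-by-gene way. Psmb5 held 47.5, 55.6 and 70.3 CPM in liver, 40.9, 58.5 and 74.9 CPM in kidney and 10.3, 12.3 and 16.8 CPM in lung. Lung did not overlap the other tissues, and liver and kidney overlapped over most of their range. Psmb5 was lower in lung than in liver (-2.15, SE 0.10, adjusted p = 1.43e-21) and than in kidney (-2.21, SE 0.10, adjusted p = 4.75e-22), also on plain totals (-0.84 and -1.89). Kidney minus liver was 0.06 for Psmb5 and not called (adjusted p = 0.579), and 1.04 and called on plain totals. Psmb6 held 456, 479 and 614 CPM in liver, 266, 334 and 375 CPM in kidney and 200, 249 and 262 CPM in lung, with no overlap between any pair of tissues. Its differences from liver of -0.59 in kidney and -1.05 in lung turned to 0.39 and 0.26 on plain totals, both called there too. Psmb7 held 92.5, 102 and 153 CPM in liver, 9.40, 45.8 and 58.0 CPM in kidney and 25.9, 32.0 and 35.1 CPM in lung. Liver lay above both other tissues for Psmb7 (-1.58 in kidney and -1.80 in lung, and -0.60 and -0.49 on plain totals), and kidney and lung overlapped.

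Psmb8 held 127, 173 and 287 CPM in liver, 31.5, 36.6 and 52.8 CPM in kidney and 134, 204 and 276 CPM in lung. Kidney lay below every liver and lung value, and liver and lung overlapped nearly whole. Psmb8 was lower in kidney than in liver (-2.16, SE 0.13, adjusted p = 3.99e-18) and higher in lung than in kidney (2.37, SE 0.13). Psmb10 had the same order, with 109, 162 and 255 CPM in liver, 33.0, 40.5 and 62.0 CPM in kidney and 158, 176 and 233 CPM in lung, and differences of -1.93 in kidney minus liver and 2.08 in lung minus kidney. Lung minus liver was not called for either (Psmb8 0.21, adjusted p = 0.105; Psmb10 0.15, adjusted p = 0.230). Psmb9 held 25.2, 46.6 and 119 CPM in liver, 7.93, 11.1 and 15.2 CPM in kidney and 44.6, 75.5 and 116 CPM in lung. Kidney again stood alone (-2.19 against liver), and lung was above liver (0.51, SE 0.13, adjusted p = 0.000417) with overlapping values. On plain totals the 3 genes stayed lower in kidney than in liver, by -0.94 to -1.21, and all 3 were called higher in lung than in liver, by 1.46 to 1.81. Psmb9 overlaps Tap1 on the other strand at chr17:34181987-34187764, and whether strand was used in the counting is not stated, so reads of that overlap cannot be told apart.

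A ratio within a library does not depend on the scaling. Psmb8, Psmb9 and Psmb10 together took 17.0 to 22.9% of the counts of the 6 catalytic genes in kidney in air at ZT4-8 and 14.1 to 18.4% at ZT16-20. They took 29.7 to 50.8% and 28.3 to 43.7% in liver, and 57.6 to 67.4% and 58.2 to 65.0% in lung. In air the 3 tissues did not overlap, and liver spread the most (38.9% ± 9.45, SD, n = 4, at ZT4-8). The share was chosen after the tissue values were seen and has no test, and it adds counts of genes of different length. In 6% oxygen its group means lay at 38.9 and 40.5% in liver, 18.9 and 16.9% in kidney and 61.3 and 58.3% in lung. In constant darkness the group means of WT liver were 31.9 to 36.0% and those of KO liver 38.0 to 43.8%.

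**Figure D2:**
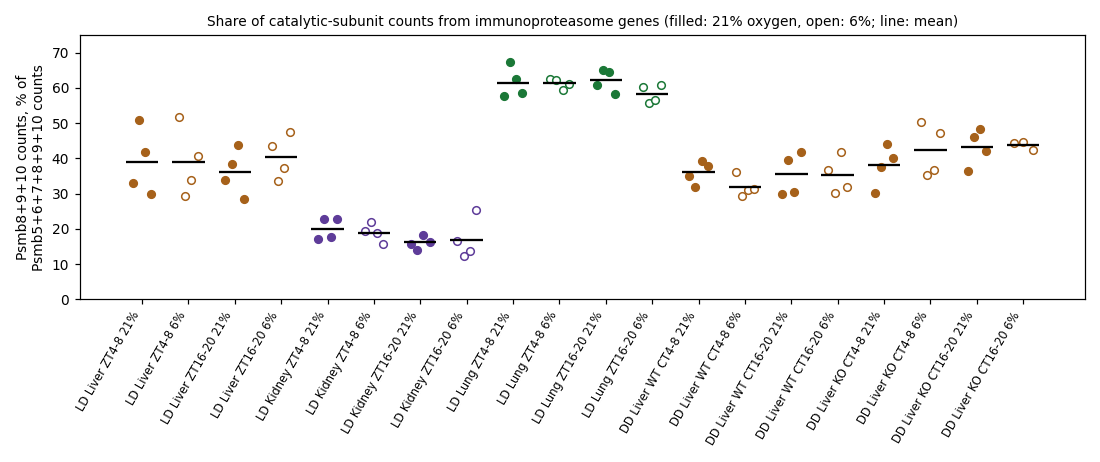
Share of the counts of Psmb5 to Psmb10 that fell on Psmb8, Psmb9 and Psmb10, in percent, 1 point for each library, by tissue, time, oxygen and genotype, with a bar at the group mean. Lung libraries lie highest and kidney libraries lowest, and liver in constant darkness lies in the range of liver in the light-dark cycle.

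On scaled totals, leukocyte markers were also lowest in kidney, and unlike Psmb8 and Psmb10 they stood higher in lung than in liver without overlap. Marker sums were not taken on plain totals, so their order between kidney and liver rests on the scaling. The 10 leukocyte markers measured summed to 6149 to 11034 CPM in lung, 272 to 502 CPM in liver and 111 to 204 CPM in kidney, while the 3 immunoproteasome genes summed to 336 to 625 CPM, 263 to 661 CPM and 77.2 to 125 CPM. Lyz2, a lysozyme gene of macrophages that is also known from alveolar type II cells, made up most of the lung sum, with a mean of 8336 CPM. The other 9 markers summed to 470 to 844 CPM in lung, 146 to 290 CPM in liver and 86.1 to 128 CPM in kidney, and Csf1r, a macrophage receptor, had means of 69.1, 80.3 and 38.2 CPM. Of the markers, Cd3e was at 0 counts in 2 of 8 kidney and 1 of 8 liver libraries, S100a8 in 2 and 3, and S100a9 in 3 of 8 kidney libraries. Their part in the difference was not tested. In whole tissue, fewer cells of a type and less RNA per cell cannot be told apart. The class I presentation genes listed beside the proteasome (Tap1, Tap2, Tapbp, B2m, H2-K1, H2-D1, Nlrc5 and Irf1) were lower in kidney than in liver in 8 of 8 and higher in lung than in kidney in 8 of 8, with medians of -2.07 and 2.20. In lung against liver 3 were higher and 3 lower. On plain totals 6 were lower in kidney than in liver (median -1.08), 8 higher in lung than in kidney (2.52) and 6 higher in lung than in liver.

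The ring activator Psme1 and Psme2, which is known to work with the immunoproteasome, followed it in part. Psme1 ran from 374 to 517 CPM in liver, 66.9 to 180 CPM in kidney and 175 to 292 CPM in lung, with liver above both and kidney and lung just touching. It was lower in kidney (-1.82) and lung (-0.91) than in liver, and on plain totals these came to -0.84 and 0.39. Psme1 was higher in lung than in kidney (0.91, adjusted p = 5.46e-07). Psme2 was lower in kidney (-1.34) and lung (-1.28) than in liver, -0.35 and 0.02 on plain totals. Lung minus kidney was 0.06 for Psme2 (adjusted p = 0.585), and 0.38 and called on plain totals. Of the 31 listed pathway genes, which include those of class I presentation, 1 was higher and 19 lower in kidney than in liver, 5 higher and 19 lower in lung than in liver, and 12 higher and 16 lower in lung than in kidney, beside the shares of all genes given above (33.3% and 32.6%, 40.5% and 38.3%, and 38.7% and 36.8%). On plain totals, where 75.9% and 77.0% of all genes were higher than in liver, these became 19 higher and 7 lower, 20 and 2, and 14 and 8.

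In lung, Psmd11, Psmd1, Psmd8, Psma3, Psmb2 and Psmb4 were called higher in 6% oxygen at both times and Psmg3 lower. At ZT4-8, 7 of 48 proteasome genes were higher and 1 lower, where 11.2% and 11.4% of all genes were. At ZT16-20, 8 were higher and 1 lower, where 10.2% and 10.9% were. The counts of higher genes lie near those shares, and most proteasome genes were not called. The median difference was 0.14 and 0.21, against -0.0011 and -0.01 over all genes, and 36 of the 48 were positive at each time. On plain totals, which lowered the share of higher genes among all calls from 49.7 to 37.0% at ZT4-8 and from 48.4 to 30.2% at ZT16-20, the counts of proteasome genes were 6 higher and 2 lower, and 4 higher and 3 lower. Air libraries B and C of ZT4-8 and D of ZT16-20 lay apart from the other lung libraries in a principal component analysis, and without these 3 the counts were 6 higher and 1 lower, and 6 higher and 2 lower. Hepatocyte markers, which summed to at most 145 CPM in lung in air, stood lower in 6% oxygen by medians of -1.48 and -1.40 with 0 of 4 called, and their part in the result was not tested.

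Psmd11 stood in lung at 18.6, 19.04, 20.1 and 16.7 CPM in the 4 air libraries and 28.4, 30.3, 34.6 and 33.8 CPM in the 4 of 6% oxygen at ZT4-8, and at 20.6, 24.2, 21.6 and 26.0 CPM and 32.4, 35.9, 29.3 and 26.6 CPM at ZT16-20. Every 6% library lay above every air library at each time. Psmd11 was called at ZT4-8 (0.77, SE 0.14, adjusted p = 0.000239), in 8 of 8 fits that left out 1 library. At ZT16-20 it was called (0.43, adjusted p = 0.0319) in 4 of 8 such fits. Psmd1 at ZT4-8 stood at 176, 171, 180 and 184 CPM in air and 239, 241, 215 and 233 CPM in 6% oxygen. The groups did not overlap, and Psmd1, the largest scaffold of the cap's base, was higher by 0.38 (SE 0.09, adjusted p = 0.00268). Psmd1 was also called at ZT16-20 (0.25, adjusted p = 0.0445). Psmd8, a lid subunit, was higher at both times (0.40 and 0.42), in every fit that left out 1 library.

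Psma3 in lung at ZT16-20 stood at 19.6, 16.5, 20.8 and 34.8 CPM in air and 60.9, 55.8, 61.4 and 52.6 CPM in 6% oxygen. The groups stood well apart for Psma3, an alpha subunit of the outer ring. It was higher by 1.31 (SE 0.28, adjusted p = 0.00252) at ZT16-20 and by 0.88 (SE 0.26) at ZT4-8, where library B of air at 14.9 CPM lay far below the others at 34.9 to 39.2 CPM and the groups nearly met. Psma3 overlaps 3110056K07Rik on the other strand. Of the 7 alpha subunits 2 were called higher at ZT4-8 (Psma3 and Psma6, 0.63) and 1 at ZT16-20, and of the 7 constitutive beta subunits 2 each (Psmb2, 0.45 and 0.62; Psmb4, 0.40 and 0.30). Psmc4, an ATPase, was called at ZT16-20 (0.37). Without the 3 air libraries that stood apart, Psma6 (0.52, adjusted p = 0.0540) and Psmb2 (0.53, adjusted p = 0.0579) at ZT4-8 and Psmc4 (0.26, adjusted p = 0.0881) at ZT16-20 were no longer called.

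The activator subunit Psme2 in lung at ZT16-20 stood at 212, 204, 161 and 232 CPM in air and 275, 271, 296 and 264 CPM in 6% oxygen. All 4 libraries in 6% oxygen lay above those in air. Psme2 was higher by 0.45 (SE 0.11, adjusted p = 0.00343), and Psme2 and Psme2b summed by 0.41 (adjusted p = 0.00731). None of the 3 immunoproteasome subunits was called at either time, at -0.06 to 0.10 and -0.35 to 0.19. All 7 constitutive beta subunits were positive at ZT16-20 (0.16 to 0.62, 2 called).

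Psmg3, a chaperone of the alpha ring, was the called gene that went down. At ZT4-8 it stood in lung at 56.1, 64.5, 54.7 and 56.1 CPM in air and 39.5, 38.0, 37.3 and 39.7 CPM in 6% oxygen. At ZT16-20 it stood at 61.1, 52.0, 61.3 and 46.3 CPM in air and 34.6, 34.3, 41.2 and 38.9 CPM in 6% oxygen. No 6% library reached the lowest air library at either time. Psmg3 was lower by -0.58 (SE 0.12, adjusted p = 0.000933) and -0.57 (SE 0.12, adjusted p = 0.00146), in 8 of 8 fits each that left out 1 library. Of the other 3 core chaperones none was called. Psmg3 lies at chr5:139823592-139826885 on the minus strand (mm10) and overlaps Gm26938 on the same strand, and how reads of the overlap were counted is not stated.

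**Figure D3:**
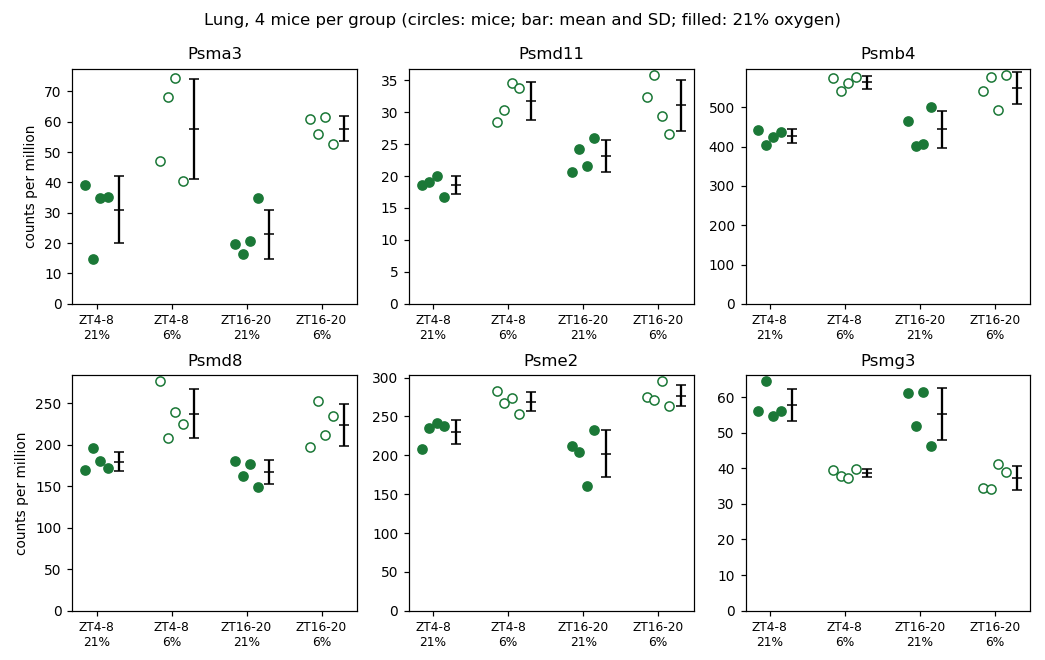
Lung levels of leading proteasome genes in air and in 6% oxygen at each time, as TMM-scaled CPM, 1 point for each mouse with bars for the group mean and SD. Psmg3 lies lower in 6% oxygen at both times, and Psma3, Psmd11, Psmb4, Psmd8 and Psme2 lie higher, with Psma3 spread most.

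In liver at ZT16-20 Psmd3 and Psmc5 were the leading genes called higher in 6% oxygen and Psmc6 the leading gene called lower. At ZT4-8, 0 of 47 were called, where 9.64% of all genes were, with 4 at an unadjusted p under 0.05 and 0 by DESeq2. The 3 with the smallest p were Psmd3 (0.37, adjusted p = 0.139), Psmg3 (-0.36) and Psmb5 (-0.30). At ZT16-20, 7 were higher and 3 lower, where 9.98% and 10.3% of all genes were, so that the 10 of 47 called lie at the share of all genes. The median was 0.13. The difference between the times was called for 0 of 47 (2.06% of all genes), with 1 at an unadjusted p under 0.05 and 0 by DESeq2. Leaving out 1 library gave 4 to 8 called genes at ZT16-20.

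Psmd3 at ZT16-20 stood at 59.7, 56.8, 47.3 and 60.5 CPM in air and 84.7, 84.4, 84.8 and 96.4 CPM in 6% oxygen. Psmc5 stood at 30.4, 38.6, 28.9 and 38.2 CPM in air and 51.2, 52.6, 46.4 and 43.0 CPM in 6% oxygen. For both genes the groups did not overlap. Psmd3, a lid scaffold, was higher by 0.65 (SE 0.15, adjusted p = 0.005) and Psmc5, an ATPase, by 0.51 (SE 0.13, adjusted p = 0.00956). Psmc6 stood at 8.03, 8.12, 5.71 and 6.81 CPM in air and 4.18, 2.39, 3.94 and 1.87 CPM in 6% oxygen. The lowest air library lay above the highest in 6% oxygen, on 28 to 35 counts in air and 7 to 20 in 6% oxygen. Psmc6, another ATPase, was lower by -1.16 (SE 0.29, adjusted p = 0.00731). These 3 were called in all 8 fits that left out 1 library.

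The other called genes in liver at ZT16-20 moved less. Psme4 (-0.57) and the lid subunit Psmd6 (-0.41) were lower, and Psmd8 (0.32), Psmc4 (0.33), Psmb6 (0.32), Psmd13 (0.48) and Psme1 (0.38) higher. Psme4 was called in 6 of 8 fits that left out 1 library, Psmd6 in 2, Psmd8 and Psmc4 in 1 and Psmb6 in 0. All 7 alpha subunits were negative (-0.05 to -0.58) and all 7 constitutive beta subunits positive (0.02 to 0.65), with 0 and 1 called. The alpha subunits summed to 592 CPM in air library C, against at most 467 CPM in the other air libraries. Signs of genes measured in the same libraries are not independent. Psmb8, Psmb9 and Psmb10 stood at 0.37 to 0.75 with none called, and the leukocyte markers had a median of 0.05 with 0 of 7 called.

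Kidney held 1 called gene over both times. At ZT4-8, 0 of 48 were called, where 5.28% of all genes were, with 7 at an unadjusted p under 0.05 and 0 by DESeq2. The smallest p were those of Psmd11 (0.48, adjusted p = 0.111), Psmg3 (-0.44) and Psmc5 (-0.44). Without library C of air, 6 genes were called at ZT4-8, among them Psmd11 (0.65, adjusted p = 0.0160) and Psmc5 (-0.60, adjusted p = 0.0112). Psmc1 at ZT16-20 stood at 132, 133, 135 and 140 CPM in air and 159, 186, 173 and 184 CPM in 6% oxygen. The groups did not overlap, and the ATPase Psmc1 was higher by 0.38 (SE 0.10, adjusted p = 0.0291), the single call at ZT16-20, where 3.44% of all genes were higher and 3.47% lower. Psmc1 was called in 1 of 8 fits that left out 1 library. At ZT16-20 all 7 alpha subunits were negative in kidney (-0.10 to -0.42), while 6 of 7 were positive at ZT4-8, with none called at either time.

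In constant darkness 6 proteasome genes were called in WT liver at CT4-8, and the leading 2 were Psme2 and its copy. In all, 2 were higher and 4 lower, where 5.70% and 6.07% of all genes were. Psme2 stood at 85.7, 110, 110 and 118 CPM in air and 37.4, 24.5, 34.6 and 64.3 CPM in 6% oxygen. Psme2b stood at 9.52, 13.0, 11.7 and 13.4 CPM in air and 70.0, 46.0, 53.7 and 15.6 CPM in 6% oxygen. Psme2 in 6% oxygen lay below every air library, and Psme2b lay above, though library d of 6% oxygen came close to air in its Psme2b level. Psme2 was lower by -1.39 (SE 0.21, adjusted p = 0.000111) and Psme2b higher by 1.93 (SE 0.31, adjusted p = 0.000331). Summed, the pair ran from 95.2 to 131 CPM in air and 70.5 to 107 CPM in 6% oxygen, a difference of -0.45 (SE 0.15, adjusted p = 0.0582) that was not called. Psme2b took 9.67 to 10.6% of the sum in air and 19.5 to 65.3% in 6% oxygen. With 5 differing bases in the coding sequence, the split between the 2 genes is less certain than the sum. Psme2b also overlaps 9930111J21Rik1 and Gm12185 on the same strand. How reads of that overlap were counted is not stated, so the sum is uncertain too.

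Psmb5 in WT liver at CT4-8 stood at 58.9, 26.9, 19.9 and 23.7 CPM in air and 16.9, 11.1, 13.9 and 15.6 CPM in 6% oxygen. The air values scattered widely, with library a, which stood apart from its table, far above the others, and the highest 6% library lay below the lowest in air. Psmb5 was lower by -1.13 (SE 0.28, adjusted p = 0.0104), and it was called in all 8 fits that left out 1 library, with a smallest difference of -0.69. Psmg3 was lower (-0.57), Psmb10 lower (-0.54) and Psme3, an activator of the nucleus, higher (0.55). Of the 8 fits that left out 1 library, Psmg3 was called in 6, Psme3 in 3 and Psmb10 in 2. Without library a of air, Psmb10 came to -0.37 (adjusted p = 0.112). At CT16-20, 1 gene was lower and 0 higher, where 4.55% and 5.28% of all genes were. Psmc6 stood at 13.6, 10.4, 9.74 and 8.39 CPM in air and 4.99, 5.68, 3.33 and 5.58 CPM in 6% oxygen. The air libraries lay above, and Psmc6 was lower by -1.09 (SE 0.28, adjusted p = 0.0133). This call held in 6 of 8 fits that left out 1 library. With the value for ZT16-20 above, Psmc6 was called lower in WT liver in the later hours of both light regimes, at low levels in each.

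**Figure D4:**
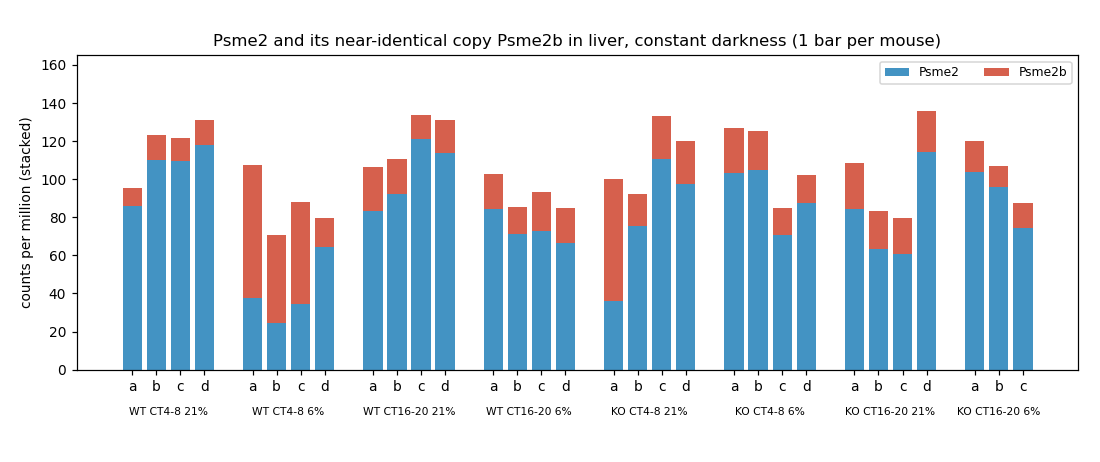
Levels of Psme2 and Psme2b in liver in constant darkness, as TMM-scaled CPM, 1 stacked bar for each library by genotype label, time and oxygen. The Psme2b part sits on top of the Psme2 part, so the full height of a bar is the sum of the pair. In WT liver at CT4-8, Psme2 lies lower and Psme2b higher in 6% oxygen, and library a of KO in air at CT4-8 lies apart with 64.1 CPM of Psme2b.

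In KO liver 0 of 47 proteasome genes were called at either time, where 5.59% of all genes were at CT4-8 and 4.51% at CT16-20. At each time 4 had an unadjusted p under 0.05, and DESeq2 called 0. The smallest p at CT4-8 were those of Psmc3 (0.33, adjusted p = 0.190), Psme2b (-0.77) and Psmc2 (0.29), and at CT16-20 those of Psmb2 (0.54, adjusted p = 0.159), Psmb5 (0.46) and Psmg3 (-0.35).

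Across the 10 comparisons of 6% with 21% oxygen, which share no library though the 3 tissues of the light-dark cycle share mice, 23 of 48 genes were called at least once, 10 at least in 2 and 7 were higher in 2 or more. Of the 7617 genes tested in all 10 comparisons, 52.9% were called at least once, 28.0% at least in 2 and 13.6% were higher in 2 or more, so the proteasome genes lie near or below the shares of all genes. Psmg3 was negative in all 10 (-0.13 to -0.58) and called lower in 3, lung at both times and WT liver at CT4-8. Psmd8 was positive in 9 of 10 and called higher in 3, lung at both times and liver at ZT16-20. Psmb2 and Psmd3 were positive in 8 of 10, called in 2 and 1. No gene was positive in all 10.

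**Figure D5:**
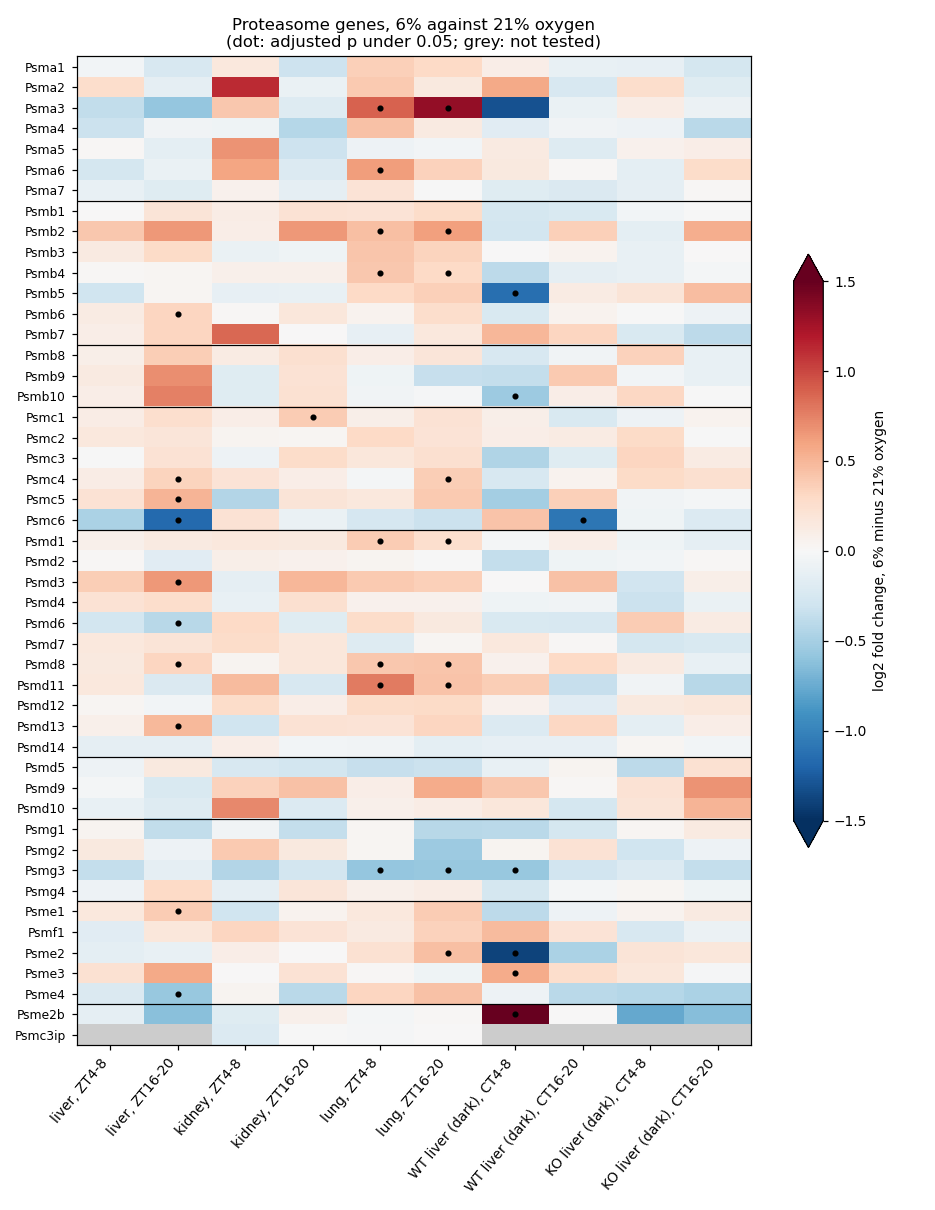
Difference between 6% and 21% oxygen (log2) for every proteasome gene tested, in rows by role, in each of the 10 comparisons, with a dot where the adjusted p was under 0.05. The row of Psmg3 is negative throughout, and the largest values in either direction are those of Psme2b and Psme2 in WT liver at CT4-8.

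Among the genes that work around the proteasome, Nfe2l2 and Irf1 were each called lower in 7 of the 10 oxygen comparisons, as 0.722% of the genes tested in all 10 were in 7 or more. Of 31 listed pathway genes, 5 were higher and 3 lower in lung at ZT4-8, 4 and 3 at ZT16-20, 1 and 1 in liver at ZT4-8, 1 and 3 at ZT16-20, 0 and 1 in kidney at ZT4-8 and 1 and 2 at ZT16-20. In constant darkness 0 were higher and 4 lower in WT liver at CT4-8, 0 and 2 at CT16-20, and in KO liver 1 and 3, and 0 and 2. These counts stand beside the shares of all genes given for each comparison above, which in lung were 11.2% higher and 11.4% lower at ZT4-8 and 10.2% and 10.9% at ZT16-20.

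Nfe2l2, a factor of the oxidative stress response that can act on subunit genes through the antioxidant response element, was negative in all 10 comparisons and called lower in 7. Its called differences were -1.21 and -1.34 in kidney, -0.44 and -0.53 in lung, -1.18 and -0.79 in WT liver in constant darkness and -1.17 in KO liver at CT4-8. Nfe2l1 was called once, in WT liver at CT4-8 (-0.71). Of the 5 genes with TGACNNNGC in the start window, Psmb5 and Psmc6 were called lower in 6% oxygen in WT liver. Psmb6 was called higher in liver at ZT16-20, and Psmd9 and Psmd12 were not called. Among all proteasome genes tested, 47.9% were called at least once in the 10 oxygen comparisons. A link between these calls and Nfe2l2 was not tested. Irf1, an interferon-induced factor known to act on Psmb8, Psmb9 and Psmb10, was called lower in 7 of 10: liver (-1.42 and -1.46), lung (-0.87 and -0.90), WT liver in constant darkness (-1.93 and -1.498) and KO liver at CT16-20 (-1.58). In those 7 comparisons 1 immunoproteasome call was made, that of Psmb10, lower in WT liver at CT4-8, where 6.07% of all genes were lower. The relation of Irf1 to these 3 genes was not tested. In lung, Txnl1 (0.78 and 0.91), a redox protein bound to the cap, Zfand2a (0.54 and 0.47), a stress-induced proteasome binder, and Rad23b (0.67 and 0.70), a carrier of ubiquitin-tagged substrates, were higher at both times.

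Time of day in air moved few proteasome genes. In liver in the light-dark cycle 1 was higher and 1 lower at ZT16-20 than at ZT4-8, where 3.24% and 2.68% of all genes were. Psmg1 in air stood at 27.7, 23.5, 27.0 and 23.8 CPM at ZT4-8 and 41.9, 33.2, 37.5 and 30.4 CPM at ZT16-20. Psmd3 in air stood at 77.5, 59.2, 86.7 and 102 CPM at ZT4-8 and 59.7, 56.8, 47.3 and 60.5 CPM at ZT16-20. The Psmg1 groups did not overlap, and those of Psmd3 did. Psmg1 was higher at ZT16-20 (0.49, SE 0.14, adjusted p = 0.0336) and Psmd3 lower (-0.54, adjusted p = 0.0398), called in 2 and 1 of 8 fits that left out 1 library. On plain totals 0 were higher and 6 lower, where the share of higher genes among all calls fell from 54.7 to 25.9%. Kidney, lung and KO liver had 0 called (1.09%, 0.979% and 0.0235% of all genes), with 2, 3 and 3 at an unadjusted p under 0.05 and 0 by DESeq2. The smallest p were those of Psma6 in kidney (0.66, adjusted p = 0.194), Psmb6 in lung (-0.23, adjusted p = 0.333) and Psmd5 in KO liver (-0.68, adjusted p = 0.377).

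In WT liver in constant darkness 1 was higher and 2 lower at CT16-20 (1.80% and 1.86% of all genes). Psmc5 in air stood at 86.9, 43.8, 53.7 and 52.8 CPM at CT4-8 and 39.7, 29.3, 29.6 and 32.6 CPM at CT16-20. Psmb2 in air stood at 101, 74.1, 105 and 114 CPM at CT4-8 and 73.4, 69.5, 56.3 and 65.7 CPM at CT16-20. Psmc6 in air stood at 5.36, 4.77, 4.51 and 5.68 CPM at CT4-8 and 13.6, 10.4, 9.74 and 8.39 CPM at CT16-20. The groups did not overlap for these 3 genes. Psmc5 was lower by -0.85 (adjusted p = 0.00954) and Psmb2 by -0.58 (adjusted p = 0.028), and Psmc6 higher by 1.03 (adjusted p = 0.0398), on air libraries that the oxygen comparisons use too. Psmc5 was called in all 8 fits that left out 1 library, Psmb2 in 3 and Psmc6 in 2. The response to oxygen differed between times for 1 gene, Psme2b in this table (-1.92, adjusted p = 0.0331), where 0.823% of all genes were higher and 0.799% lower, and 0 higher. It was called in 3 of 16 fits that left out 1 library, and for the summed pair the difference was 0.05. Kidney, lung and KO liver had 0 such calls (0.368%, 0.255% and 0.0117% of all genes), with 4, 1 and 2 at an unadjusted p under 0.05 and 0 by DESeq2.

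Between liver labelled KO and WT in air, 1 proteasome gene was higher and 4 lower at CT4-8, where 2.26% and 2.24% of all genes were. Psmb2 in air stood at 99.5, 72.7, 105 and 113 CPM in WT and 59.6, 77.5, 32.9 and 59.0 CPM in KO. Psmb5 in air stood at 58.3, 26.3, 19.9 and 23.4 CPM in WT and 15.3, 16.3, 15.9 and 17.8 CPM in KO. Psmc3 in air stood at 225, 209, 190 and 164 CPM in WT and 130, 128, 144 and 133 CPM in KO. The WT and KO values did not overlap for Psmb5 and Psmc3 and met at 1 library each for Psmb2. Psmb2 was lower by -0.77 (SE 0.18, adjusted p = 0.00795), in all 8 fits that left out 1 library. Psmb5 (-0.94), Psmc3 (-0.56) and Psmc5 (-0.74) were lower and Psme2b higher (1.40). Without library a of WT, Psmb5 came to -0.51 (adjusted p = 0.116), Psmc5 to -0.51 (adjusted p = 0.0991) and Psmc3 to -0.49 (adjusted p = 0.0515), and without library a of KO, Psme2b came to 0.79 (adjusted p = 0.190). At CT16-20, 0 were higher and 2 lower (0.965% and 1.03% of all genes). Psmd5 in air stood at 34.1, 23.3, 27.8 and 35.5 CPM in WT and 22.6, 18.9, 14.8 and 16.0 CPM in KO. Psmc6 in air stood at 13.5, 10.4, 9.63 and 8.53 CPM in WT and 5.98, 2.80, 6.56 and 4.25 CPM in KO. Both genes were lower in every KO library than in any WT library. Psmd5, a chaperone of the cap, was lower by -0.75 (adjusted p = 0.0345) and Psmc6 by -1.07 (adjusted p = 0.0395), each called in 2 of 8 fits that left out 1 library. The WT air libraries of both times also enter the oxygen and time comparisons of WT liver above, including those that called Psmc6.

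The response to 6% oxygen differed between the labels for 4 genes at CT4-8, 3 higher and 1 lower in KO minus WT, where 1.15% and 1.27% of all genes were. In KO at CT4-8, Psme2b stood at 64.5, 16.8, 22.1 and 22.8 CPM in air and 23.9, 20.4, 14.5 and 14.7 CPM in 6% oxygen. In KO at CT4-8, Psme2 stood at 36.1, 75.3, 110 and 97.7 CPM in air and 104, 103, 71.3 and 87.9 CPM in 6% oxygen. In WT the copy rose and Psme2 fell in 6% oxygen, as given above. In KO the copy was high in library a of air alone, with the other 7 libraries between 14.5 and 23.9 CPM, and Psme2 overlapped between air and 6% oxygen. The differences of the responses were -2.72 for Psme2b (SE 0.49, adjusted p = 0.00215) and 1.58 for Psme2 (SE 0.36, adjusted p = 0.0139), called in all 16 fits that left out 1 library, and 0.42 for their sum (adjusted p = 0.389). In KO at CT4-8, Psmb5 stood at 15.3, 16.3, 15.9 and 17.8 CPM in air and 23.1, 19.6, 17.5 and 14.2 CPM in 6% oxygen. Psmb5 differed by 1.32 (SE 0.34, adjusted p = 0.0302), and by 0.89 (adjusted p = 0.0597) without library a of WT air. It was called in 10 of 16 fits that left out 1 library. Psmc3 differed by 0.76 (adjusted p = 0.0347), called in 6 of 16 fits that left out 1 library. At CT16-20, 0 of 47 were called (0.0444% of all genes), with 2 at an unadjusted p under 0.05 and 0 by DESeq2, the smallest p being that of Psmd8 (-0.41, adjusted p = 0.388).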

How the data were processed

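RNA was sequenced from 79 mouse libraries in 20 groups. The values are raw counts per gene symbol as the authors deposited them, in 1 table per tissue (light-dark cycle) or genotype (constant darkness). Per the labels' protocols, input was matched between samples by qPCR of the actin B gene, and indexed cDNA was pooled and amplified by in vitro transcription. Alignment with STAR to mm10 and counting with HTSeq, after bcl2fastq and cutadapt, come from the submitters' processing notes. No source used here states their versions, the annotation or the use of strand. Replicates are separate mice per the series design text.

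Genes with low counts were removed by edgeR's filterByExpr (min.count 10, min.total.count 15), and TMM set the scaling. Counts were tested with edgeR 4.0.16 (R 4.3.3; quasi-likelihood, robust) with Benjamini-Hochberg adjustment over all genes tested. The 4 groups of a table shared a fit, WT and KO shared a joint fit, and all light-dark libraries were fitted together for the tissue comparisons, blocked by mouse. Libraries of the same time, oxygen level and letter were assumed to be 1 mouse. The light-dark tissues paired this way correlated weakly, so the pairing is an assumption. Depth was 1443280 to 6744480 counts per library, so genes near 10 CPM rest on few reads, and the number of mice limits the rest. The script was tested on simulated counts. No 2 replicates of a group were identical in 117 pairs, and all differed by more than sampling noise.

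Members and gene lists were chosen with earlier results of these data known. 2 genes of the lists beside the proteasome are not reported here. Named genes are, in each comparison, up to 8 called members by smallest adjusted p, or up to 3 by smallest p where none was called, with the catalytic and ring activator genes added between tissues. Psmd1 in lung at ZT16-20 and Psmd13 and Psme1 in liver at ZT16-20 were named after their values were seen. Alternatives were RLE scaling, DESeq2 1.42.0, no filter on low counts, a replicate block or none, leaving out each library, and 5 chosen after seeing the data: 3 sets of libraries or mice left out, Psme2 and Psme2b summed, and plain library totals. The leukocyte sum without Lyz2 was also added after seeing the data. Start windows are from RefSeq (GRCm38.p6), coding sequences and positions from GENCODE vM21 on the same build.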

Additional observations from a re-analysis of the deposited data

Results flagged for a closer look

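The highest or lowest library of a group of 4 lay far from the others by Dixon's criterion in 27 of 399 cases, where chance gives about 1 in 20. Among summed levels, the alpha subunits stood at 697 CPM in liver library A of ZT4-8 in 6% oxygen (others at most 507 CPM), 592 CPM in liver air library C of ZT16-20 (others at most 467 CPM), 828 CPM in kidney library A of ZT16-20 in 6% oxygen (others at most 683 CPM) and 302 CPM in WT air library a of CT4-8 (others at least 565 CPM). The ATPases summed to 905 CPM in that kidney library A (others at least 1066 CPM) and to 618 CPM in WT library d of CT16-20 in 6% oxygen (others at most 548 CPM). The immunoproteasome subunits summed to 188 CPM in kidney library D of ZT16-20 in 6% oxygen (others at most 97.1 CPM) and 99.5 CPM in library D of ZT4-8 in 6% oxygen (others at least 119 CPM).

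Single genes were set apart as follows. In light-dark liver these were Psmd11 at 46.7 CPM (air B, ZT16-20), Psmd3 at 96.4 CPM (6% D, ZT16-20), Psmd5 at 28.9 CPM (6% B, ZT16-20) and Psmg3 at 43.0 CPM (6% B, ZT4-8). In kidney they were Psmb5 at 47.9 CPM (6% B, ZT4-8) and Psmg1 at 42.1 CPM (air D, ZT4-8). In lung they were Psmc1 at 136 CPM (6% D, ZT4-8), Psmc3 at 219 CPM (air C, ZT16-20) and 244 CPM (6% C, ZT16-20), Psmc6 at 4.70 CPM (air C, ZT4-8) and 7.58 CPM (6% A, ZT16-20), and Psmg3 at 64.5 CPM (air B, ZT4-8). In WT liver in constant darkness they were Psmc1 at 109.8 CPM (6% a, CT16-20), and Psmd11 at 19.6 CPM and Psmd3 at 248 CPM in air library a of CT4-8, the library that stood apart from its table. In KO liver they were Psma3 at 30.2 CPM (6% a, CT4-8; others at most 4.74 CPM), Psmd1 at 125 CPM (air b, CT16-20), Psme2b at 64.1 CPM (air a, CT4-8; others at most 22.8 CPM) and Psmg1 at 21.6 CPM (6% c, CT4-8).

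The response to 6% oxygen differed between groups by an interaction term for 5 results: Psme2b between times in WT liver (-1.92), and between KO and WT at CT4-8 Psmb5 (1.32), Psmc3 (0.76), Psme2 (1.58) and Psme2b (-2.72).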

How the results depend on the processing

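Under RLE scaling no count of called proteasome genes moved by more than 1.5 times. DESeq2 gave 2 instead of 1 in WT liver at CT16-20 and 1 instead of 2 for genotype at CT16-20, and no filter on low counts gave 1 instead of 2 for time in liver. With Psme2 and Psme2b summed, the difference between times in WT liver held 0 instead of 1 and that between genotypes at CT4-8 held 2 instead of 4. On plain library totals, time in liver held 6 instead of 2, and 7 tissue differences reversed: kidney minus liver for Psmb1 (0.10) and Psmb6 (0.39), and lung minus liver for Psmb1 (0.071), Psmd8 (0.15), Psme2 (0.023), Psmb6 (0.26) and Psme1 (0.39). The summed pair, the totals and the libraries that stood apart were chosen after seeing the data. The cause was not tested.

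With the replicate letter as a block (replicate block), called genes came to 6 instead of 10 for oxygen in liver at ZT16-20, 1 instead of 2 for time in liver, 0 instead of 1 for oxygen in kidney at ZT16-20, 0 instead of 1 for the difference between times in WT liver and 1 instead of 2 for genotype at CT16-20. The letters share only a name within a table: same-lettered libraries had correlations of -0.28 to 0.17, and 3 of 16 liver libraries were closest to their own letter. Between tissues, dropping the replicate block of the mouse moved no count by more than 1.5 times, and same-mouse correlations were -0.07 to 0.22, with 25 of 48 libraries closest to their own letter.

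Leaving out 1 library or mouse gave these lowest and highest counts of called genes. For oxygen they were 0 to 1 and 4 to 8 in liver (ZT4-8, then ZT16-20), 0 to 6 and 0 to 3 in kidney, 6 to 9 and 6 to 11 in lung, 3 to 6 and 0 to 1 in WT liver, and 0 in both for KO. For time they were 0 to 2 in liver, 0 to 3 in kidney, 0 in lung, 1 to 3 in WT and 0 in KO liver. The difference between times held 0 to 3 in kidney, 0 to 2 in WT and 0 in the other tables. Genotype held 2 to 7 and 0 to 2, its difference in response 2 to 5 and 0, and the tissues 34 to 37 (kidney minus liver), 43 to 45 (lung minus liver) and 34 to 37 (lung minus kidney). None of the 82 named differences that were called changed sign in these fits, and of 41 named without a call 2 did: lung minus kidney for Psmb7 (-0.39 to 0.057) and Psme2 (-0.0039 to 0.11).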
